A study of Homo sapiens with 6 samples.

Results

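The cluster of miR-221 and miR-222 was examined in TGF-β1-activated LX-2 cells. Its members were found by their names in the deposited miRNA tables: both arms of miR-221, both arms of miR-222, and 1 sequence that the authors named from a chromosome and a number, chrX_24164. Of these 5 names, 4 were listed, each as 1 sequence, among 463 distinct sequences in all. miR-222-5p was not listed in any library. Within the cluster the members were chosen by name, and no level entered that choice. The cluster itself was selected on earlier co-culture values of these data, the fold changes of its 3p sequences, so these and what follows from them are given as a description and its calls are no independent evidence.

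LX-2 is an immortalized human hepatic stellate cell line, used as a model of the cells that make scar matrix in the injured liver. In the co-culture group (3 libraries) activated LX-2 cells shared medium through a porous membrane for 48 h with HUC-MSCs, mesenchymal stem cells of the human umbilical cord, and in the single culture group (3 libraries) the upper chamber held no cells. All 6 samples received TGF-β1, which drives stellate cells toward a fibrogenic state, at 10 ng/mL for 24 h by the sample labels, while the study's methods give a longer exposure. The labels name no separate cultures or donors behind the replicates, so a p-value here speaks of the spread between libraries, which may be technical. Libraries carry the number of their column, since the tables give the group of a column but not its sample.

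miR-221 and miR-222 are cut from 2 hairpins of 1 primary transcript. Their 3p arms carry the same seed, the bases near the 5′ end that choose the target mRNAs, and a well-known shared target is the cell cycle inhibitor CDKN1B (p27). Both miRNAs are known to be raised in activated stellate cells and in fibrotic liver. The 3′ end of a miRNA often varies by a base or more after cutting, and such forms keep the seed. The sequences are shown because the shared seed and the 1-base difference at the 3′ end define what was compared. Capitals mark the seed, bases 2 to 8. The listed sequences are as deposited, and that of miR-222-5p is from RefSeq (GRCh38.p14).

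miR-221-3p, annotated form: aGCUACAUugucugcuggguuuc
chrX_24164: aGCUACAUugucugcuggguuu
miR-222-3p: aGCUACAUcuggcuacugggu
miR-221-5p: aCCUGGCAuacaauguagauuu
miR-222-5p: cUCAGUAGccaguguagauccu

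chrX_24164 is miR-221-3p without its last base, 22 nt in place of 23 nt, and is called the shorter form here. miR-221-3p and miR-222-3p share their first 8 bases. Set base against base from the 5′ end without gaps, 11 of the 21 positions that both have are the same. Only these 3 of the 463 sequences carried the seed GCUACAU. miR-221-5p and miR-222-5p have other seeds. No form of miR-222-3p with another end was listed.

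In the RefSeq hairpins (GRCh38.p14, minus strand), shown for the position of the arms, capitals mark the 5p and then the 3p arm.

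MIR221: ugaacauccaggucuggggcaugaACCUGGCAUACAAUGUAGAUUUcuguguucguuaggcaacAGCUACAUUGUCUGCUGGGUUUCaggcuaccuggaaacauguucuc
MIR222: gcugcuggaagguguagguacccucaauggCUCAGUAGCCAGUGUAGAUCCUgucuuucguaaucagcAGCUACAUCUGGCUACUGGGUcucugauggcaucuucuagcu

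MIR221 lies at chrX:45746157-45746266 and MIR222 at chrX:45747015-45747124, with 748 bases between them. In GENCODE release 29 both are intronic to MIR222HG, a long noncoding RNA gene on the same strand (chrX:45745211-45770274). Each listed sequence matched 1 hairpin of the human RefSeq set and no other. The last base of the annotated miR-221-3p is the one that follows the shorter form in the hairpin.

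Levels are given as CPM, tags relative to the library size after TMM scaling, a method that takes most sequences as unchanged. Depth differed widely between the groups. Total tags were 325037, 604418 and 421964 in co-culture and 209043, 43956 and 47528 in single culture. Forms of miR-21-5p took 75.0% to 81.2% of the tags in co-culture and 37.1% to 56.4% in single culture, so changes of the other miRNAs depend on the scaling. Single culture libraries 2 and 3 stood apart in short sequences. Those under 21 nt took 3.79%, 2.28% and 2.12% of the tags in co-culture and 7.56%, 23.4% and 25.7% in single culture. Of the tags other than miR-21-5p forms they took 15.2%, 12.1% and 11.3% in co-culture and 17.3%, 38.8% and 40.8% in single culture. Of the marker lists, none of the hepatocyte, epithelial, blood or striated muscle miRNAs was listed. Of 6 mesenchymal markers 5 were listed, of which miR-21-5p and miR-143-3p were tested and lay in opposite directions (log2 fold changes of 1.39 and -1.23, adjusted p = 0.0176 and 0.144 from edgeR), with the miR-145-5p and miR-199a sequences at no more than 8 tags in any library and miR-214-3p not listed. The summed level of the listed mesenchymal markers was 88430 to 110309 CPM in co-culture and 34792 to 50080 CPM in single culture. Nearly all of it was miR-21-5p, at 87485 to 109452 CPM in co-culture and 31771 to 49251 CPM in single culture. miR-143-3p had 906, 825 and 847 CPM in co-culture and 780, 2417 and 2977 CPM in single culture, where libraries 2 and 3 were again the ones apart. Both endothelial markers were listed, with summed levels of 186 to 255 CPM in co-culture and 124 to 174 CPM in single culture, and 1 of 2 neuronal markers, at 65.9 to 81.5 CPM in co-culture and 31.0 to 118 CPM in single culture. HUC-MSCs are mesenchymal too, and a part of their RNA in these values was not tested.

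After co-culture and with TMM scaling, the annotated form of miR-221-3p was lower relative to the other miRNAs, miR-222-3p was not, and the shorter form of miR-221-3p lay near its single culture level. The annotated form had 289, 427 and 351 tags in co-culture and 586, 109 and 119 in single culture. These are 1119, 1137 and 1244 CPM in co-culture and 1929, 1689 and 1763 CPM in single culture. Every co-culture library lay below every single culture library. The log2 fold change was -0.62 (standard error 0.11, 95% interval -0.89 to -0.35, adjusted p = 0.0279 from edgeR's quasi-likelihood test over 182 sequences). At this threshold 4.4% of the tested sequences passed, 2.2% lower in co-culture and 2.2% higher. The groups did not overlap in CPM for 35.7% of them, with co-culture lower in 15.9%. In bulk RNA, less of a miRNA per cell and fewer cells that make it cannot be told apart.

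The call of the annotated form rested on all libraries but 1. With 1 library left out at a time, its adjusted p in edgeR was 0.0964, 0.0993 and 0.0888 without co-culture libraries 1, 2 and 3, and 0.0817 and 0.0929 without single culture libraries 2 and 3. Without single culture library 1 it was 0.00382. The calls over all sequences moved as well. Without co-culture libraries 1, 2 and 3, 5 of 173, 0 of 170 and 0 of 172 sequences passed. Without single culture libraries 1, 2 and 3, 43 of 172, 2 of 182 and 3 of 181 passed. The log2 fold change of the annotated form stayed between -0.69 and -0.58 throughout. The short sequences named above moved with the group contrast, most of all through single culture libraries 2 and 3. In a fit of sequences of 21 nt or longer the annotated form was at -0.72 (adjusted p = 0.000602 from edgeR). With single culture libraries 2 and 3 both left out, the ones rich in short sequences, the annotated form was at -0.73. That fit holds only single culture library 1, the highest of its group, so no p is given for it.

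The shorter form had 227, 370 and 270 tags in co-culture and 299, 53 and 49 in single culture. Its levels were 879, 985 and 957 CPM in co-culture and 984, 821 and 726 CPM in single culture, and the groups overlapped. The log2 fold change was 0.14 (adjusted p = 0.803 from edgeR), so neither a fall nor a rise was called, and neither was excluded. Its standard error of 0.28 and 95% interval of -0.54 to 0.82 are derived from the p. They are rough for so small a fold change and are not to be set beside those of the other members. It was 0.040 with sequences of 21 nt or longer and -0.065 without single culture libraries 2 and 3.

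miR-222-3p had 80, 109 and 69 tags in co-culture and 64, 11 and 13 in single culture. Its levels were 310, 290 and 245 CPM in co-culture and 211, 170 and 193 CPM in single culture. Every co-culture library lay above every single culture library, as was so for 19.8% of the tested sequences. The log2 fold change was 0.52 (standard error 0.16, 95% interval 0.13 to 0.90), and it did not pass the adjustment over all sequences (adjusted p = 0.104 from edgeR). The values of single culture libraries 2 and 3 rest on 11 and 13 tags. With sequences of 21 nt or longer the log2 fold change was 0.44, and without these libraries 0.42.

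miR-221-5p, the arm opposite miR-221-3p, was rare. It had 5 tags in each co-culture library, 2 tags in single culture libraries 1 and 2, and no listed value in single culture library 3. Because the smallest count in the table is 2, a blank can stand for 0 or 1 tag. These counts are below the minimum of 10 tags in 3 libraries and were not tested. For miR-222-5p, not listed anywhere, 2 tags would equal 5.32 to 7.75 CPM in co-culture and 6.58, 31.0 and 29.6 CPM in single culture, so a level under these could not be seen.

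**Figure D1:**
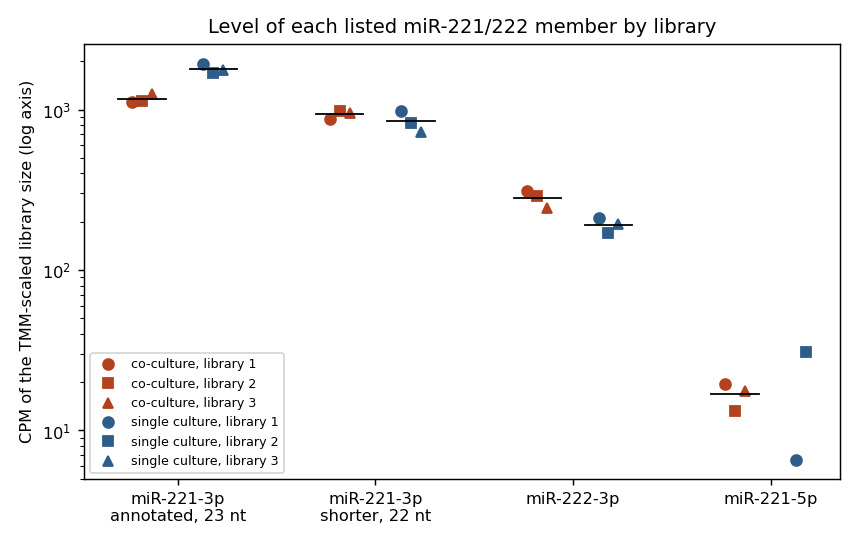
Level of each listed member in every library, in CPM after TMM scaling on a log axis, with co-culture in red, single culture in blue, 1 marker shape per library number and a black line at the mean of a group whose 3 libraries are listed. The annotated form of miR-221-3p lies at 1119 to 1244 CPM in co-culture, below its 1689 to 1929 CPM in single culture, while the shorter form overlaps and miR-222-3p is higher in co-culture on this scale, though not with library size alone.

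The order of the members by tags was the same in all 6 libraries: the annotated form of miR-221-3p, the shorter form, miR-222-3p and miR-221-5p. Tags count whole molecules of like length, but ligation can favour 1 sequence over another, so the order is one of tags. The distance between the first members was smaller in co-culture. There the annotated form averaged 1167 ± 67.7 CPM and the shorter form 941 ± 54.8 CPM (SD, n = 3 each). In single culture they averaged 1793 ± 123 and 844 ± 131 CPM (SD, n = 3 each). In both groups the means of these neighbours lay further apart than their SDs. miR-222-3p averaged 282 ± 33.5 CPM in co-culture and 191 ± 20.1 CPM in single culture (SD, n = 3 each).

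When the tags of both miR-221-3p forms were summed before the fit, miR-221-3p had 2005, 2126 and 2209 CPM in co-culture and 2928, 2488 and 2478 CPM in single culture. The groups did not overlap, as was so for 35.7% of the 182 sequences of the main fit, with co-culture lower in 15.9%. The log2 fold change was -0.32 (standard error 0.12, adjusted p = 0.165 from edgeR over 181 sequences), so the sum did not pass the test that the annotated form alone passed. All 4 listed members together made up 0.185%, 0.151% and 0.165% of the tags in co-culture and 0.455%, 0.398% and 0.381% in single culture. Among tags other than the miR-21-5p forms the groups overlapped, at 0.740%, 0.7997% and 0.874% in co-culture and 1.04%, 0.661% and 0.605% in single culture.

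**Figure D2:**
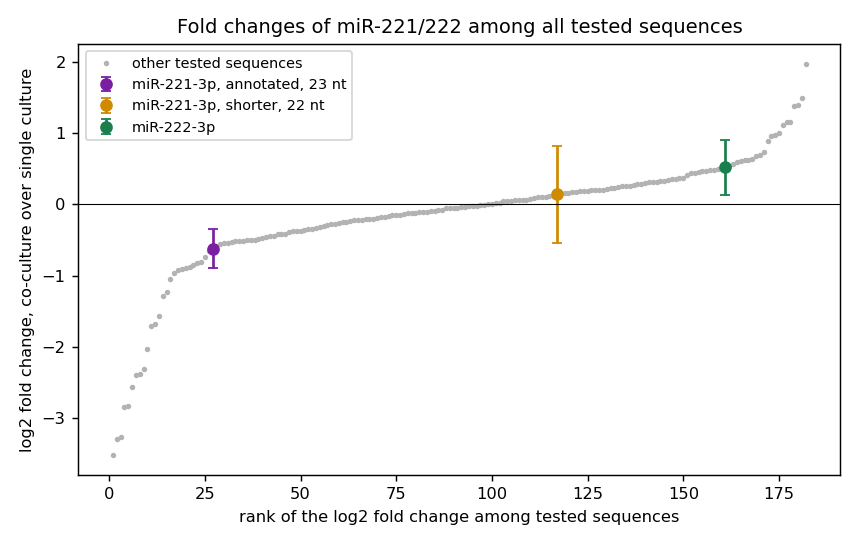
Log2 fold change of co-culture over single culture against its rank among the 182 tested sequences, with grey points for the other sequences and coloured points with 95% intervals for the 3 tested members. The annotated form of miR-221-3p is at -0.62, the shorter form at 0.14 and miR-222-3p at 0.52. Intervals are derived from the p, and that of the shorter form is rough because its fold change is small.

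The direction of the shorter form and of miR-222-3p depends on what the libraries are scaled to, while the annotated form was lower under each scaling. The order of the members by fold change stays, since a scaling shifts all sequences of a library alike. With RLE size factors, or with the miR-21 sequences left out of the scaling, the annotated form was at -0.61 and -0.59, the shorter form at 0.15 and 0.18, and miR-222-3p at 0.53 and 0.55 on the log2 scale. With library size alone the median of all tested sequences moved to -1.11, against -0.04 with TMM. The annotated form was then at -1.69, the shorter form at -0.93 and miR-222-3p at -0.54, so the last 2 changed sign. In each of these scalings the annotated form lay below the median of all sequences, and the shorter form and miR-222-3p lay above it.

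The authors' own scaled values show the same dependence. The annotated form of miR-221-3p stood at 333, 278 and 328 in co-culture and 993, 502 and 478 in single culture in the authors' normalized values. Library 1 of single culture was the highest of the 6 for all 3 abundant members. On this scale miR-222-3p had 92, 71 and 64 in co-culture and 108, 51 and 52 in single culture, and the groups overlapped.

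**Figure D3:**
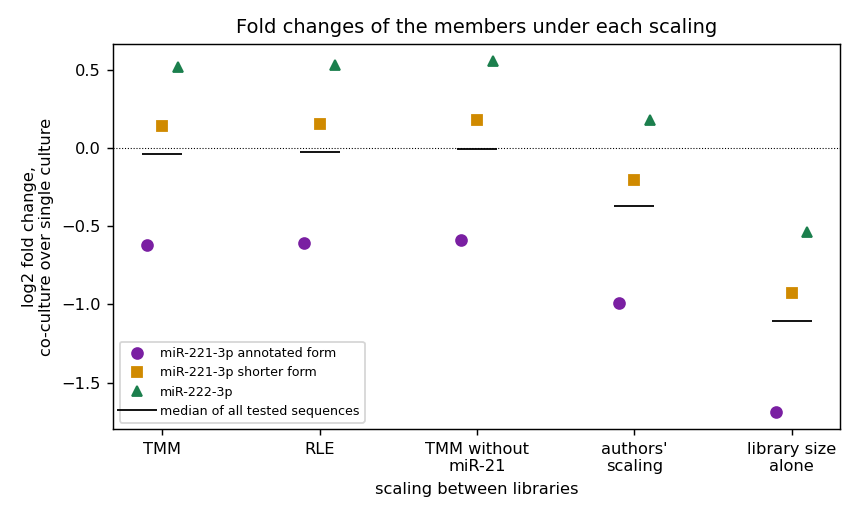
Log2 fold change of co-culture over single culture for the 3 tested members, with a black bar for the median of all tested sequences, under each scaling between libraries. The authors' scaling is shown as fitted by limma on log2 of the normalized value plus 1. The members shift together, with miR-222-3p highest and the annotated miR-221-3p lowest throughout.

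Ratios within a library do not depend on the scaling. They were therefore compared next, first for the forms of miR-221-3p. The shorter form made up 44.0% (227 of 516 tags), 46.4% (370 of 797) and 43.5% (270 of 621) of the miR-221-3p tags in co-culture. In single culture it made up 33.8% (299 of 885), 32.7% (53 of 162) and 29.2% (49 of 168). The shorter form thus had a larger share in every co-culture library, 44.6% ± 1.57 against 31.9% ± 2.42 in single culture (SD, n = 3 each), a difference of 12.7 percentage points.

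Counting error was widest in single culture libraries 2 and 3. The exact 95% binomial intervals ran from 39.5% to 49.96% over the co-culture libraries. They were 30.7% to 37.0%, 25.6% to 40.5% and 22.4% to 36.7% in single culture libraries 1, 2 and 3. Only the interval of single culture library 2 reached into those of co-culture. Against single culture library 1 alone, the deepest of its group, the difference was 10.8 percentage points. The intervals cover counting error only, as PCR copies are not told apart. With 3 libraries against 3 an exact permutation test cannot give a p below 0.1, and none is given for a share whose parts were known beforehand.

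**Figure D4:**
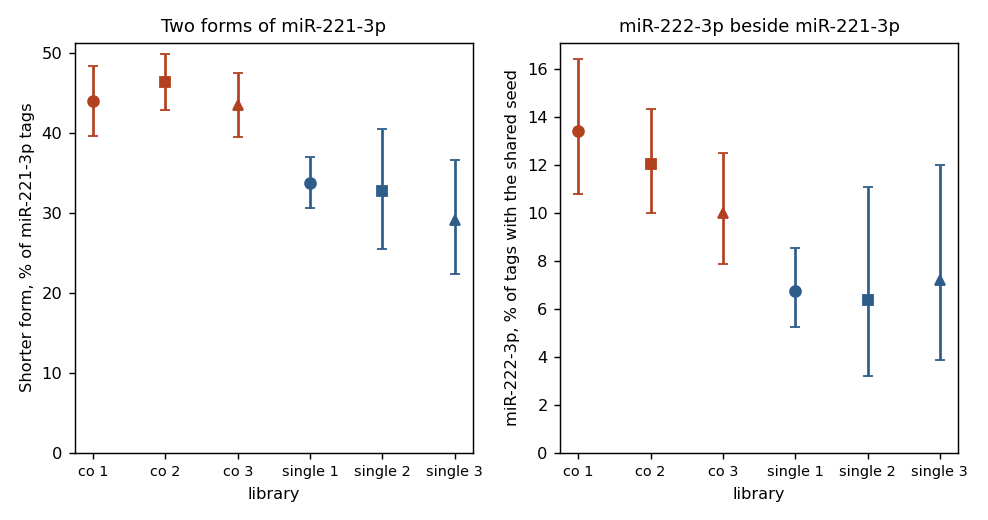
Left, tags of the shorter form as a percentage of all miR-221-3p tags in each library. Right, tags of miR-222-3p as a percentage of all tags that carry the shared seed. Bars are exact 95% binomial intervals for counting error, co-culture is red and single culture blue. Both shares are higher in each co-culture library, 43.5% to 46.4% against 29.2% to 33.8% on the left and 10.0% to 13.4% against 6.36% to 7.18% on the right.

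Of all listed sequences, 5 pairs differed by 1 base at the 3′ end and passed the minimum count in both forms. The share of the shorter form did not overlap between the groups in 4 of these 5 (80%), in both directions. In the miR-10a-5p pair, where the shorter form is chr17_7541, it was 70.0% ± 2.38 in co-culture and 64.6% ± 1.06 in single culture (SD, n = 3 each), the same direction as for miR-221-3p. In the miR-21-5p pair, where the annotated form is the shorter and chr17_6906 the longer, it was 8.76% ± 0.452 in co-culture and 12.5% ± 0.269 in single culture (SD, n = 3 each), the opposite direction. The share of the shorter form was thus not raised in all miRNAs after co-culture. The other pairs, of miR-10b-5p and miR-424-3p, had no more than 5 tags in single culture libraries 2 and 3.

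**Figure D5:**
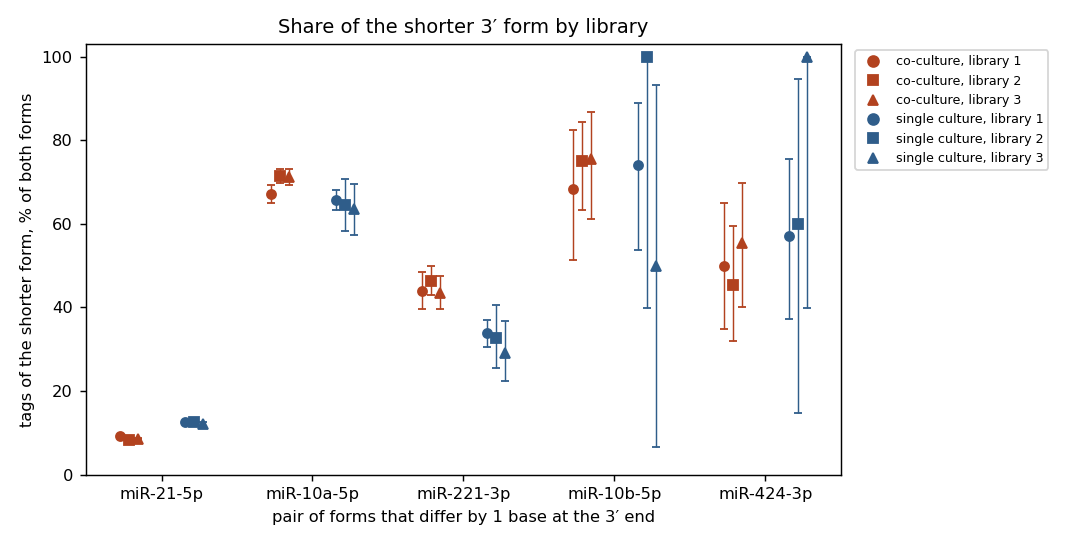
Tags of the shorter form as a percentage of both forms for the 5 pairs of sequences that differ by 1 base at the 3′ end, in the order of their tags, with exact 95% binomial intervals. Co-culture is red and single culture blue. miR-221-3p and miR-10a-5p have a larger share of the shorter form in co-culture and miR-21-5p a smaller one, while the intervals of the other pairs are wide.

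The second ratio set miR-221-3p against miR-222-3p, which come from 1 transcript. Tags of both miR-221-3p forms were 6.45, 7.31 and 9.0 times those of miR-222-3p in co-culture and 13.8, 14.7 and 12.9 times in single culture. The groups did not overlap, as for 35.1% of all pairs of tested sequences listed in every library. On the log2 scale the ratio averaged 2.91 ± 0.24 in co-culture and 3.79 ± 0.09 in single culture (SD, n = 3 each), a difference of -0.88. With the annotated form alone the difference was -1.18, also without overlap. With the shorter form alone it was -0.39, and the groups overlapped.

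Put as a share of all tags with the seed GCUACAU, miR-222-3p made up 13.4%, 12.03% and 10.0% in co-culture and 6.74%, 6.36% and 7.18% in single culture. The exact 95% binomial intervals of single culture libraries 2 and 3, 3.22% to 11.1% and 3.88% to 11.97%, reached into those of co-culture, which ran from 7.86% to 16.4%. That of single culture library 1, 5.23% to 8.53%, overlapped only with the interval of co-culture library 3. The makeup of the seed family therefore shifted in these libraries from the annotated miR-221-3p toward miR-222-3p and the shorter form. The precision of this is set by the 11 to 64 tags of miR-222-3p in single culture. Such ratios did not overlap between the groups for 35.1% of pairs of tested sequences, and form shares for 4 of 5 pairs. The cluster was also selected on the fold changes of these 3p sequences, so the shift is a description.

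The third ratio compared the arms of miR-221. The 5p arm made up 0.960%, 0.623% and 0.799% of the miR-221 tags in co-culture and 0.225%, 1.22% and 0% in single culture, where the 0% stands for a blank in library 3. The exact 95% binomial intervals reached up to 2.23% in co-culture and 4.34% in single culture, and the groups overlapped. Of 65 hairpins with both arms listed and tags in every library, the 5p share did not overlap in 12 (18.5%). Among the 4 of most tags it overlapped in miR-21, let-7g and miR-151a, while in miR-27b it was 0.288% ± 0.0652 in co-culture and 0.0274% ± 0.0474 in single culture (SD, n = 3 each), also on few tags. For miR-222 no share can be given, as its 5p arm was not listed.

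The levels of the members over the 6 libraries were alike to different degrees. Likeness was measured as the root mean square difference of log2 CPM, each sequence centred on its own mean. Between the annotated and the shorter form it was 0.40, and 72 other sequences lay closer to the annotated form. Between the annotated form and miR-222-3p it was 0.59, more than the annotated form's median of 0.47 over the tested sequences. The 0.40 between the annotated and the shorter form lay under that median, but above the shorter form's own median of 0.36. Between the shorter form and miR-222-3p it was 0.25, less than the medians of these members, 0.36 and 0.48. Nearest to the annotated form were miR-27b-3p (0.09), miR-335-3p (0.14) and miR-125a-5p (0.15). Nearest to the shorter form were miR-99b-3p (0.08), let-7i-5p (0.09) and miR-941 (0.09). Nearest to miR-222-3p were miR-10a-5p (0.09), miR-146a-5p (0.12) and miR-155-5p (0.12). The group means were not removed, so likeness includes the co-culture fold changes on which the cluster was selected and is no separate evidence. These 6 libraries share their groups and depths, and no p is attached to the differences.

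Other miRNAs known to favour fibrosis or the activated stellate cell were set beside the cluster. Of 12 such miRNAs 6 were tested, of which 2 rose, none fell and 4 did not pass in edgeR, where 8 of all 182 sequences passed. The 2 that rose are the arms of 1 hairpin, miR-21-5p at 1.39 and miR-21-3p at 1.50 on the log2 scale. Among those 4, miR-155-5p was at 0.57 and miR-27b-3p, the nearest to miR-221-3p above, at -0.50, each at an unadjusted edgeR p under 0.05. The others were miR-34a-5p at 0.88 and miR-27a-3p at -0.39, so those 4 lay in both directions. The median over the 6, in which both arms of miR-21 count, was 0.72, against -0.04 over all 182 tested sequences. The annotated miR-221-3p, not counted in this list, was lower while products of the MIR21 gene were higher.

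Of 49 other miRNA arms from chromosome X, 24 were listed and 10 tested. None of the 10 passed in edgeR, 1 had an unadjusted p under 0.05 (miR-374a-5p), and their median was 0.15. The 4 of smallest p were miR-374a-5p at -0.41, miR-424-3p at 0.63, miR-98-5p at -0.58 and miR-542-3p at 0.51, so X-linked miRNAs lay in both directions. Over all 182 sequences 8 passed and 46 had an unadjusted p under 0.05.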

How the data were processed

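Small RNA libraries of 6 LX-2 samples (3 co-culture, 3 single culture) were analysed. Per miRNA, the authors deposited a raw tag count and a normalized score, which was scaled by library to a target that is not stated and then rounded. Bowtie 0.12.2 and the builds hg18 and mm8 are listed by the submitters' processing notes without a role, and the steps from read to count are not given in the sources used here. Groups of columns were taken from mean columns of the authors that carry the group names and equalled the means over these columns in 520 of 520 rows. There were 0 value columns without a group. The authors' fold changes, p-values and FDR were not used.

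Rows with an identical sequence were counted once. The quasi-likelihood test of edgeR 4.0.16 (R 4.3.3) was fitted to raw counts after TMM scaling. Sequences needed 10 counts or more in at least 3 libraries, which 182 reached, and p-values were adjusted over these by Benjamini-Hochberg. The script was tested on simulated data. Standard errors are the log2 fold change over the t quantile of its p. Alternatives used DESeq2 1.42.0, limma 3.58.1 (pseudocount 1), other scalings, minimum counts (none, 50) and sets of sequences (known, 21 nt or longer), a replicate block and leaving out libraries. The shares without 2 single culture libraries were added after seeing the data. All members are named, with the 3 tested sequences nearest to each tested member, listed miRNAs past the adjusted p or of smallest p, and pairs and hairpins of most tags. Members and lists were chosen with earlier results of these data known. The result of 1 list is not reported here. No 2 libraries of a group were duplicates (chi-square per degree of freedom 3.18 to 159).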

Additional observations from a re-analysis of the deposited data

How the results depend on the processing

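Of 182 sequences, 8 passed the adjusted p of 0.05 in edgeR (4 higher, 4 lower in co-culture). The count was 140 with library size alone (1 higher, 139 lower), 22 with DESeq2 (5 higher, 17 lower), 11 with limma on the authors' normalized values (0 higher, 11 lower), 37 with no minimum count, 21 with a minimum of 50 counts, and 13 without the 2 single culture libraries of fewest tags, where the 1 left is assumed to vary like the others. Leaving out each library in turn gave 0 to 43: 5, 0 and 0 without co-culture libraries 1, 2 and 3, and 43, 2 and 3 without single culture libraries 1, 2 and 3. The fits without co-culture libraries 2 and 3, which had no block, had 34 and 33 sequences at an unadjusted edgeR p under 0.05. With the number in the column name as a replicate block the count was 0 (30 at an unadjusted edgeR p under 0.05). The annotated miR-221-3p was then at -0.62 (adjusted p = 0.211 from edgeR). Samples of the same number did not deviate together (correlations -0.36, -0.11 and -0.21), so the numbers are not taken to pair them.

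The annotated miR-221-3p kept its direction throughout. It no longer passed with limma on the authors' normalized values (-0.99, adjusted p = 0.236), with no minimum count (-0.57, adjusted p = 0.0626) or with both forms summed (-0.32), and without 1 library it ran from -0.69 to -0.58 (adjusted p 0.00382 to 0.0993). The shorter form turned to -0.93 with library size alone (adjusted p = 0.00366, edgeR), -0.21 with limma on the authors' values and -0.065 without the 2 single culture libraries of fewest tags, and without 1 library ran from 0.048 to 0.27. miR-222-3p turned to -0.54 with library size alone and otherwise stayed positive, from 0.44 to 0.61 without 1 library, and passed under none of the alternatives. The difference in the share of the shorter form ran from 11.4 to 13.7 points without 1 library, that in the log2 ratio of miR-221-3p to miR-222-3p from -1.01 to -0.77 (-1.18 with the annotated form alone), and that in the 5p share of miR-221 from 0.0715 to 0.681 points. The causes were not tested. Depth limits the 11 and 13 tags of miR-222-3p in 2 single culture libraries and all values of miR-221-5p.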
